A study of Mus musculus with 8 samples.

Results

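The genes described here are the axon guidance ligands and receptors of the mouse: semaphorins, neuropilins and plexins, ephrins and Eph receptors, netrins and UNC5 receptors, and Slits and ROBO receptors. They were chosen by symbol, as every gene whose symbol begins with Sema, Plxn, Epha, Ephb, Efna, Efnb, Robo or Unc5, or with Ntn or Slit and a number, and Dcc, Nrp1 and Nrp2. The rule found 97 probes of 65 genes, of 16593 genes with a named probe on the array, and 18 of the 65 genes had more than 1 probe. Unc50 and Unc5cl entered through the prefix alone, are no netrin receptors, and were detected on no array. Dcc, Ephb2, Plxnb2, Robo3, Sema4c and Sema5b were not analysed here.

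The study asked whether fibroblasts that had first been turned into induced neural stem cells could then be taken to pluripotency, and each of its 8 cell samples was hybridised to 1 Illumina bead array. The somatic cells were mouse embryonic fibroblasts (MEFs), neural stem cells (NSCs) and induced neural stem cells (iNSCs), which are made from fibroblasts by transcription factors. The control pluripotent lines were embryonic stem cells (ESCs), NSC 2F iPSCs, which came from NSCs with Oct4 and Klf4, and MEF 4F iPSCs, which came from MEFs with Oct4, Sox2, Klf4 and Myc. The 2 clones iNdiPSC-1 and iNdiPSC-4 were made from iNSCs with retroviral Oct4 and Klf4. The numbers 1 and 4 are those of the labels, and since the study's text numbers its 2 clones 1 and 2, it is not settled whether iNdiPSC-4 is the second of these. The iNSCs and both clones carried the C3H background and the other 5 samples the B6D2F1/J background, so that strain and cell state cannot be told apart between clones and control lines. The 3 kinds of iPSC were grown on feeder cells in 2i medium. The labels mark the iNSCs as pluripotent, but the study's text treats them as a somatic stem cell, and they are grouped as somatic here.

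Guidance molecules steer growing axons and migrating cells by attraction or repulsion. Semaphorins act through plexins, with neuropilins as co-receptors for most of the secreted class. Slits repel through ROBO receptors, netrins attract through DCC and repel through UNC5 receptors, and membrane-bound ephrins signal to Eph receptors on a neighbouring cell, often in both directions. In neural stem cells and fibroblasts the same families take part in adhesion, migration and tissue boundaries.

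Levels are log2 values after background correction and quantile normalization, and detection means a deposited detection p-value below 0.01. The brightest probe stood for each gene, and levels are compared between arrays and not between genes. The lowest detected level lay between 4.97 and 5.27 on the 8 arrays. All 8 pluripotency markers examined were detected on all 5 pluripotent arrays, and 1 or 2 of them on the somatic arrays. Of 7 neural stem cell markers, 4 were detected in NSCs, 5 in iNSCs and 2 on each other array, with Pax6 and Sox1 undetected everywhere. Of 9 fibroblast markers, 9 were detected in MEFs, 2 in NSCs and 1 in iNSCs. In the pluripotent lines 6 of these 9 were detected in each iPSC line and 3 in ESCs, at a summed linear level of 304 to 2033 against 44511 in MEFs, and Col1a2, Pdgfrb and Postn were undetected in all 5 lines. Every group but the clones held 1 array per cell type, so differences between single arrays carry no replicate error, and a level of a bulk sample cannot separate fewer expressing cells from less RNA per cell.

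The promoters of 4 genes, 1 for each main pattern of expression described below, are printed to show the sequence at the start of the genes that carry those patterns. They were picked after the values were known, as the gene of each pattern with the largest range among those with a single RefSeq promoter (GRCm38.p6). Capitals mark CpG dinucleotides, the letters CG, in 300 bases around the gene's start.
Epha2 promoter (chr4:141300971-141301270, plus strand): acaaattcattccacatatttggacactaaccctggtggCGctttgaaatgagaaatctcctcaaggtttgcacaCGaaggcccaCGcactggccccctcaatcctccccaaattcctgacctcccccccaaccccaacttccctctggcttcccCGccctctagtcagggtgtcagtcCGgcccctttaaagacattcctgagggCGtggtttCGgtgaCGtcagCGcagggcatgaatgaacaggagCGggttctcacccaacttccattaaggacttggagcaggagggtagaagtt
Nrp1 promoter (chr8:128358823-128359122, plus strand): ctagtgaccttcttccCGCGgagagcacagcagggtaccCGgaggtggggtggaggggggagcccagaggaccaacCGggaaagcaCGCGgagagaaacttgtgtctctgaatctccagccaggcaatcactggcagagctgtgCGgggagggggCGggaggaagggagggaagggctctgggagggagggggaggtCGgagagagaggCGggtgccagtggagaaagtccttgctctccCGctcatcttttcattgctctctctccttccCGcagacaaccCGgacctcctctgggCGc
Unc5c promoter (chr3:141465314-141465613, plus strand): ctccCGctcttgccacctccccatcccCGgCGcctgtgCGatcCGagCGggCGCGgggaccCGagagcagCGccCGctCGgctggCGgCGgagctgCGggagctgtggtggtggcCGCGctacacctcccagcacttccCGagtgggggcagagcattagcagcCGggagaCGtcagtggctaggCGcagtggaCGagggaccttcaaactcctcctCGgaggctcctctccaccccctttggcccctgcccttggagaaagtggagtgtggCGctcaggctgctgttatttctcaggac
Ephb1 promoter (chr9:102354644-102354943, minus strand): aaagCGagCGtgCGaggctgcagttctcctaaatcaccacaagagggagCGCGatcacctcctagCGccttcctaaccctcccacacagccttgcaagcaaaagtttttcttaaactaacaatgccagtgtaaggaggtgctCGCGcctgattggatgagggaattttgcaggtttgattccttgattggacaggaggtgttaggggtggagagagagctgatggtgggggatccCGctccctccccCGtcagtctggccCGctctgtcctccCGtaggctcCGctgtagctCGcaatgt
The Epha2 promoter held 10 CpGs, Nrp1 14, Unc5c 24 and Ephb1 14. Of 32851 RefSeq promoters of the same length, 43.5% held at least 10 CpGs, 36.3% at least 14 and 20% at least 24. Promoters were found for 56 of the 65 genes (70 promoters), with a median of 18 CpGs against 7 over all promoters. All promoters were those of 27025 genes, more than the 16593 with a named probe on the array. The medians are therefore of unlike sets of genes. These are counts of letters and say nothing of methylation, which was not measured on the arrays.

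A smaller share of the members than of all genes was detected on every array, and several members were found in a single cell type. Over the 8 arrays 46 members were detected at least once. Members detected on all arrays were 7 (Efna4, Efna5, Ntn3, Robo1, Sema4b, Slit2 and Unc5b), or 10.8% of members against 35.8% of all genes. Members detected on no array were 19 (Efna2, Epha10, Epha6, Ephb3, Ephb6, Ntn1, Plxna1, Plxna4, Plxnd1, Robo2, Sema3e, Sema3g, Sema6b, Sema6c, Slit1, Unc50, Unc5a, Unc5cl and Unc5d), 29.2% against 38.4%. MEFs had the most detected members, 29 of 65 (44.6%, against 48.1% of all genes), and NSCs and iNSCs had 24 each (36.9%, against 46.5% and 46.7%). The pluripotent lines ranged from 18 in iNdiPSC-4 to 23 in MEF 4F iPSCs, or 27.7% to 35.4%, where 45.9% to 50.5% of all genes were detected.

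**Figure D1:**
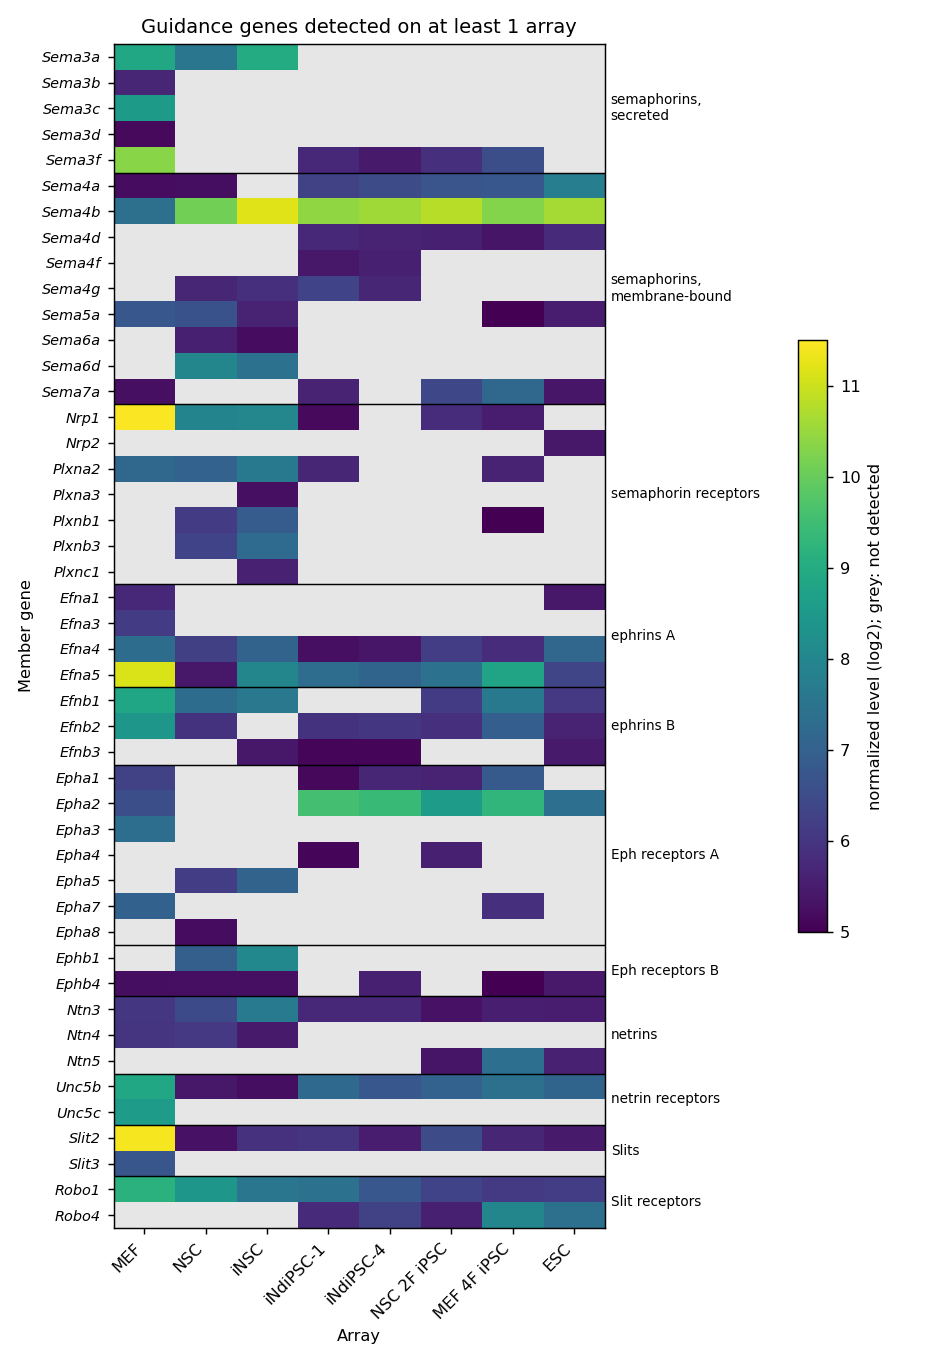
Normalized log2 level (colour) of the 46 detected members (rows, grouped by role) on the 8 arrays (columns), with undetected values in grey. Sema4b is bright on every array but MEF, Sema3b, Sema3c and Sema3d are coloured in MEF alone, and Ephb1, Epha5, Plxnb3, Sema6a and Sema6d are coloured in NSC and iNSC alone.

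In MEFs alone, 7 members were detected: the secreted semaphorins Sema3b, Sema3c and Sema3d, the ligands Efna3 and Slit3, and the receptors Epha3 and Unc5c. They were 10.8% of members, and 1.98% of all genes had this pattern. Sema3c, a secreted repellent or attractant that acts through neuropilins and plexin-D1, was at 8.54 in MEFs and undetected at 4.23 to 4.85 on the other arrays. Unc5c, a receptor for repulsion by netrins, was at 8.60 in MEFs and undetected at 4.29 to 4.81 on the others. Slit3 was at 6.74, Epha3, an ephrin-A receptor, at 7.34, Efna3 at 6.13, Sema3b at 5.70 and Sema3d at 5.16. The Sema3d level lay just above the array's lowest detected level of 5.09. The other Epha3 probes were at 8.57 and 6.66 in MEFs and undetected elsewhere, as the first was.

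In NSCs and iNSCs alone, 5 members were detected, 7.69% of members against 1.42% of all genes. They were the receptors Ephb1, Epha5 and Plxnb3 and the transmembrane semaphorins Sema6a and Sema6d, which are ligands for A-type plexins. Ephb1, a receptor for B-type ephrins, was at 6.96 in NSCs and 8.04 in iNSCs. Epha5, which binds A-type ephrins, was at 6.17 and 7.06, Plxnb3, a receptor for Sema5a, at 6.32 and 7.26, Sema6d at 7.98 and 7.43, and Sema6a at 5.57 and 5.22. On the other 6 arrays the undetected values ran from 4.28 to 4.58 for Ephb1, 4.24 to 4.32 for Epha5, 4.24 to 4.46 for Plxnb3 and 4.20 to 4.55 for Sema6d. Of the 3 other probes of Sema6d, 1 was detected, in NSCs alone at 5.20, and the other Sema6a probe was detected nowhere.

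Between iNSCs and MEFs, a fibroblast sample of another strain than the iNSCs, more members were lower than higher. Of 39 members detected in either, 19 were at least 2-fold lower in iNSCs, where 18.9% of all genes were, and 8 were at least 2-fold higher, where 19.4% of all genes were. The median difference over members was -0.88, and 0.14 over all genes. In NSCs, of 37 members, 19 were at least 2-fold lower than in MEFs (19.4% of all genes) and 7 higher (19.7% of all genes), with a median of -1.06 and 0.12 over all genes. Both rest on the same MEF array.

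**Figure D2:**
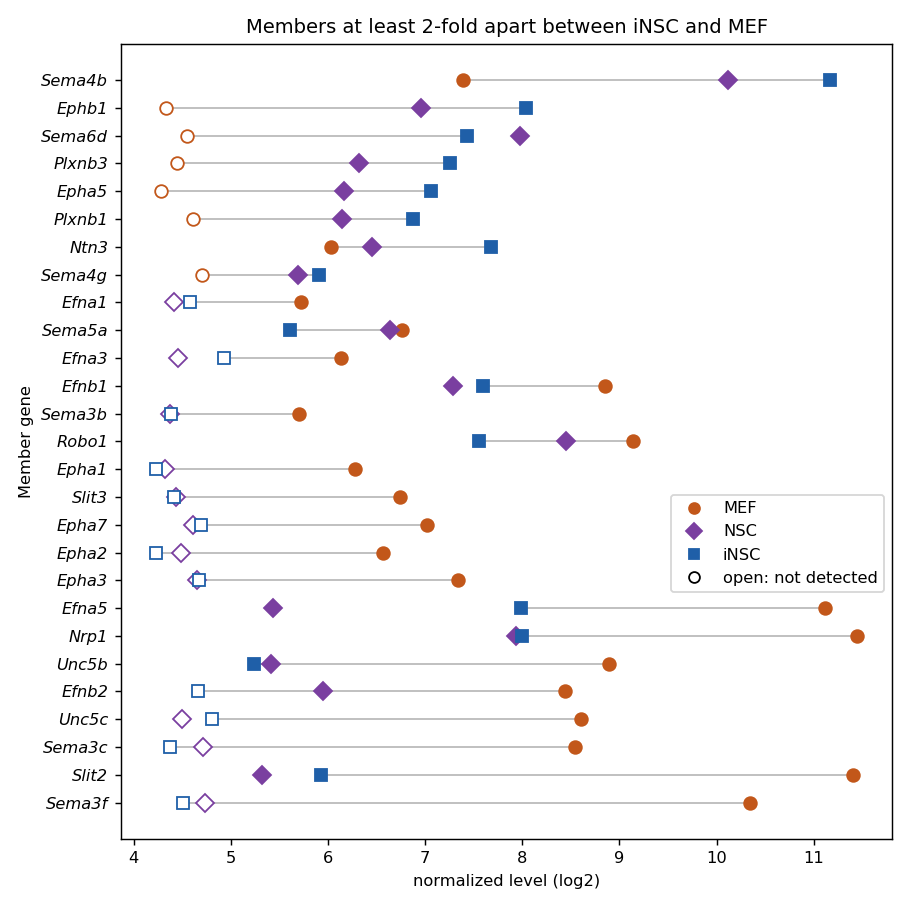
Normalized log2 level (horizontal axis) in MEF (circles), NSC (diamonds) and iNSC (squares), 1 array each, for the 27 members at least 2-fold apart between iNSC and MEF, ordered by that difference, with open symbols for undetected values. The MEF circle is the rightmost symbol for the 19 lower members, and Sema4b has the rightmost iNSC square.

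Sema3f, a secreted repellent that acts through neuropilin-2, was at 10.34 in MEFs and undetected in NSCs (4.73) and iNSCs (4.51), at least 35.5-fold and 35.8-fold lower. Slit2, the ligand of ROBO receptors, was at 11.40 in MEFs, 5.32 in NSCs and 5.93 in iNSCs, 67.4-fold and 44.3-fold lower. Efnb2, a transmembrane ephrin, was at 8.44, 5.95 and, undetected, 4.66, which is 5.62-fold and at least 9.61-fold lower. Each of these ligands was therefore brightest in fibroblasts among the somatic cells. Unc5c and Sema3c, given above, were at least 10.7-fold and 10.2-fold lower in iNSCs than in MEFs. Nrp1, the co-receptor of secreted semaphorins and of VEGF, was at 11.45 in MEFs, 7.94 in NSCs and 8.00 in iNSCs, 10.9-fold lower in iNSCs. A second Nrp1 probe read 11.30, 7.88 and 7.91.

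Sema4b, a transmembrane semaphorin, led the members that were higher in iNSCs, at 11.17 against 7.39 in MEFs, a 13.7-fold difference, and was at 10.12 in NSCs and 10.30 to 10.81 in the 5 pluripotent lines. Over MEFs, the iNSC level was higher by at least 7.7-fold for Ephb1, 5.04-fold for Sema6d, 4.5-fold for Plxnb3 and 3.92-fold for Epha5. The remaining 3 were Plxnb1 (at least 3.44-fold), Ntn3 (3.13-fold) and Sema4g (at least 1.75-fold as a bound). These are differences of single arrays, and the iNSCs also differed from MEFs and NSCs in strain.

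Between iNSCs and NSCs, 7 members differed by at least 2-fold. Of 27 members detected in either, 5 were at least 2-fold higher in iNSCs (9.93% of all genes were) and 2 lower (10.2% of all genes), with a median of 0.38, against 0.02 over all genes. Efna5, a GPI-anchored ephrin that repels axons bearing EphA receptors, differed most, at 7.99 in iNSCs and 5.43 in NSCs, a 5.9-fold difference, and it was at 11.12 in MEFs. By this probe its level in iNSCs thus lay between those of NSCs and MEFs. The second Efna5 probe was at 5.89 in MEFs and undetected in iNSCs (4.31) and NSCs (4.34), which gives those 2 no order. Sema3a, the classical growth cone repellent, was at 8.99 in iNSCs and 7.56 in NSCs (2.7-fold) and at 8.90 in MEFs. Ephb1 was 2.1-fold and Sema4b 2.07-fold higher. Ntn3 was 2.34-fold higher by its brighter probe (7.68 in iNSCs, 6.45 in NSCs), but the second Ntn3 probe went the other way, at 5.82 in iNSCs and 6.34 in NSCs. Efnb2 was at least 1.71-fold lower in iNSCs and Sema5a, a transmembrane semaphorin with thrombospondin repeats, 2.03-fold lower, at 5.61 against 6.64. In MEFs Sema5a was at 6.76, in MEF 4F iPSCs at 5.01 and in ESCs at 5.51, and this probe was undetected in NSC 2F iPSCs (4.98) and both clones (4.77 and 4.57). The second Sema5a probe was also lower in iNSCs (5.72) than in NSCs (6.48), but by less than 2-fold. It was detected in NSC 2F iPSCs (5.32) and ESCs (5.37) and undetected in MEF 4F iPSCs (4.65) and both clones.

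In the comparison of the 3 control lines (pluripotent) with the 3 somatic cell types, 33 members were measured well enough to test, and 32 were not, being detected on fewer than 2 of the 6 arrays. With limma, and a call at a Benjamini-Hochberg adjusted p below 0.05 over all 9007 genes tested and at least a 2-fold change, 3 of the 33 were higher in the pluripotent lines and 5 lower. Of all genes tested 12.9% were called higher and 10.4% lower. The median difference was -0.65 over members and 0.03 over all genes, and 13 members (39.4%) had an unadjusted p below 0.05, against 40.9% of all genes. The 3 arrays of each side are different cell types, so that the error is the spread between cell types and not between cultures. Members were called on these same arrays, and a call favours groups that do not overlap. Where groups of a called member are said not to overlap, this is no further support for the call.

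**Figure D3:**
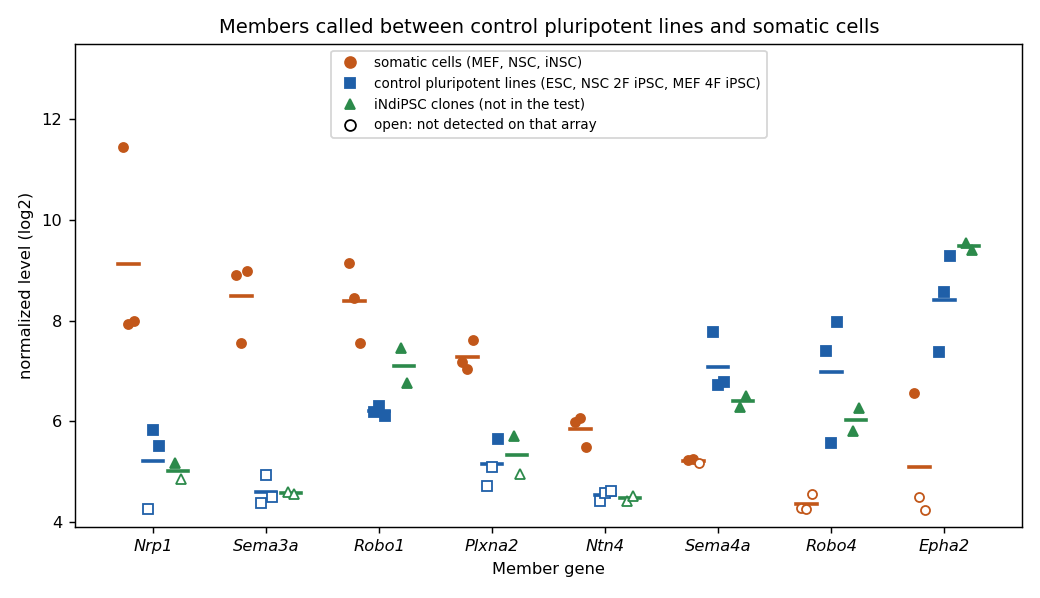
Normalized log2 level (vertical axis) of the 8 called members on each array, with somatic cells as circles, control pluripotent lines as squares, iNdiPSC clones as triangles (outside the test), horizontal bars at group means and open symbols for undetected values. The circles and squares do not overlap for any of the 8 genes, which the choice of called genes favours. The Nrp1 circle of MEF stands far above the other circles.

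Of the receptors, Epha2, which binds A-type ephrins and is known from epithelial and embryonic cells, was higher in the pluripotent lines. Its level was 9.28 in MEF 4F iPSCs, 8.56 in NSC 2F iPSCs and 7.37 in ESCs, against 6.57 in MEFs and undetected in NSCs (4.49) and iNSCs (4.23). The groups did not overlap, and the difference was 3.30 (SE 0.76, limma adjusted p = 0.0247, at least 6.75-fold). Robo4, a ROBO family receptor known from endothelial cells, was at 7.98 in MEF 4F iPSCs, 7.39 in ESCs and 5.57 in NSC 2F iPSCs and undetected in all 3 somatic cells (4.25 to 4.55). Its difference was 2.62 (SE 0.61, limma adjusted p = 0.0259, at least 3.55-fold), and the other 2 Robo4 probes were detected on no array. Of 5 endothelial markers, Pecam1 and Tek were detected in the pluripotent lines and Cdh5, Kdr and Emcn were not, with a summed level of 345 to 455 in the pluripotent lines, 216 in MEFs and 0 in NSCs and iNSCs.

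Sema4a, a transmembrane semaphorin, was at 7.77 in ESCs, with NSC 2F iPSCs at 6.72 and MEF 4F iPSCs at 6.77, against 5.22 in MEFs, 5.24 in NSCs and, undetected, 5.16 in iNSCs. All pluripotent lines lay above all somatic cells, by 1.88 (SE 0.34, limma adjusted p = 0.0124, at least 3.65-fold). Sema4d, the ligand of plexin-B1, was also detected on all 5 pluripotent arrays and on no somatic array, at 5.38 to 5.81, but its difference of 0.55 (at least 1.35-fold) was not called (adjusted p = 0.137).

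Sema3a was lower in the control pluripotent lines. It was at 8.90 in MEFs, 7.56 in NSCs and 8.99 in iNSCs and undetected in all 5 pluripotent lines (4.37 to 4.93), with a difference of -3.89 (SE 0.44, limma adjusted p = 0.00319, at least 10.2-fold). Nrp1, through which it signals, was at 5.83 in NSC 2F iPSCs, 5.51 in MEF 4F iPSCs and undetected in ESCs (4.26), against the somatic levels above, and its difference was -3.93 (SE 1.01, limma adjusted p = 0.0345, at least 12.1-fold). Plxna2, a plexin that pairs with neuropilins, was at 7.18, 7.04 and 7.62 in MEFs, NSCs and iNSCs, at 5.64 in MEF 4F iPSCs, and undetected in NSC 2F iPSCs (5.08) and ESCs (4.72). The difference for Plxna2 was -2.13 (SE 0.33, limma adjusted p = 0.00798, at least 3.8-fold), so that ligand, co-receptor and plexin were all lower in these lines. The groups did not overlap for Sema3a, Nrp1 or Plxna2.

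Robo1, the Slit receptor, was detected on all arrays, at 9.14 in MEFs, 8.45 in NSCs, 7.55 in iNSCs, 6.10 in MEF 4F iPSCs, 6.30 in NSC 2F iPSCs and 6.19 in ESCs. The somatic cells lay above every control line, by 2.19 (SE 0.42, limma adjusted p = 0.0148, 4.55-fold). Ntn4, a netrin of basement membranes, was at 5.98, 6.07 and 5.48 in MEFs, NSCs and iNSCs and undetected in all 5 pluripotent lines (4.42 to 4.61). Its difference was -1.30 (SE 0.26, limma adjusted p = 0.0162), at least 1.63-fold. The calls for Epha2, Robo4, Nrp1, Robo1 and Ntn4 were lost on leaving out 1 or more single arrays, and those of Robo4 and Ntn4 also when undetected values were raised to the array's lowest detected level, whereas Sema3a kept its call in all 15 alternative settings. Without the MEF array 16 members were called and without the MEF 4F iPSC array 3. The share of all genes called in these settings is not given here, so the shift cannot be read as particular to members.

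Among members not called, the genes detected in NSCs and iNSCs alone also differed among the somatic cells, being undetected in MEFs. The differences of control lines from somatic cells were -2.39 for Sema6d (at least 2.87-fold, SE 0.86, adjusted p = 0.0875), -2.02 for Ephb1 (at least 2.48-fold, SE 0.90, adjusted p = 0.141), -1.67 for Plxnb3 (at least 1.84-fold, SE 0.69, adjusted p = 0.12) and -1.59 for Epha5 (at least 1.63-fold, SE 0.68, adjusted p = 0.131), all limma. Slit2 (adjusted p = 0.454), Efna5 (adjusted p = 0.762) and Sema3f (adjusted p = 0.778) were brightest in MEFs and their groups overlapped.

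The iNdiPSC clones were compared with the 3 control pluripotent lines. These were ESCs, which were not made by reprogramming, and the iPSCs made directly from NSCs and from MEFs. The fit therefore does not compare the clones with directly made lines alone, and the clones also differed from all controls in strain. The control arrays are shared with the comparison above. No member was called by limma among 25 tested, and 5 (20%) had an unadjusted p below 0.05 against 19.1% of all genes. Of all 8400 genes tested 0.571% were called higher and 0.595% lower. The median difference was -0.19 over members and 0.02 over all genes, and each clone is 1 array.

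The largest difference was in Efnb1, a transmembrane ephrin, which was undetected in iNdiPSC-1 (5.02) and iNdiPSC-4 (4.72) and at 7.62 in MEF 4F iPSCs, 6.16 in NSC 2F iPSCs and 6.07 in ESCs. In MEFs, NSCs and iNSCs it was at 8.85, 7.29 and 7.60. The groups of the test did not overlap, with a difference of -1.74 (SE 0.48, limma adjusted p = 0.139, at least 2.92-fold). Epha2 was at 9.55 and 9.40 in the clones, just above MEF 4F iPSCs (9.28) and further above NSC 2F iPSCs (8.56) and ESCs (7.37). Its difference was 1.07 (SE 0.53, limma adjusted p = 0.33). This became 0.55 without ESCs, 1.15 without NSC 2F iPSCs and 1.51 without MEF 4F iPSCs. Sema4g, a transmembrane semaphorin, was at 6.32 and 5.70 in the clones and undetected in the control lines (4.75 to 5.18), with a difference of 1.06 (at least 1.84-fold, SE 0.25, adjusted p = 0.107). Sema4f was detected in the clones alone (5.43 and 5.58), and its difference was 0.91 (at least 1.3-fold, SE 0.18, adjusted p = 0.0758). Ntn5 was undetected in the clones and at 5.36, 7.38 and 5.59 in the control lines, with a difference of -1.32 (at least 2.06-fold, SE 0.60, adjusted p = 0.293). Robo1 was at 7.45 and 6.76 in the clones, above each control line (0.91, SE 0.24, adjusted p = 0.13), and Efna4, a GPI-anchored ephrin, was at 5.26 and 5.39 against 5.83 to 7.15 (-1.06, SE 0.39, adjusted p = 0.218). None of these differences passed the threshold, and the clones differ from the control lines in strain too.

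Against the iNSCs they came from, the clones had 13 of 34 members at least 2-fold lower (22.2% of all genes were) and 8 higher (23.7% of all genes), with a median of -0.73 against 0.04 over all genes. With undetected values at the lowest detected level of their array, 11 members were lower and 3 higher. The share of all genes under that setting is not given here. Ephb1 was at 8.04 in iNSCs and at 4.31 and 4.35 in the clones (at least 7.83-fold lower), Sema6d at 7.43 and at 4.27 and 4.28 (at least 5.13-fold), and Plxnb3 at 7.26 and at 4.46 and 4.40 (at least 4.58-fold). Sema3a was at least 15.2-fold lower and Nrp1 at least 7.41-fold, at 5.16 in iNdiPSC-1 and undetected in iNdiPSC-4. On the other side Epha2 was at least 19.6-fold higher than in iNSCs, Unc5b, a netrin receptor for repulsion, 3.36-fold, Sema4a at least 2.32-fold, Robo4 at least 1.81-fold and Efnb2 at least 1.77-fold. In iNdiPSC-1 and iNdiPSC-4 Robo4 was at 5.80 and 6.26, Sema4a at 6.28 and 6.51, and Plxna2 at 5.71 and, undetected, 4.94. Ntn3 was at 5.75 in both clones and at 5.32 to 5.55 in the control lines, against 6.03, 6.45 and 7.68 in MEFs, NSCs and iNSCs.

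The other donor and derived pairs had 1 array each. From NSCs to NSC 2F iPSCs, 14 of 32 members were at least 2-fold lower (21.1% of all genes) and 9 higher (21.3% of all genes), with a median of -0.15. From MEFs to MEF 4F iPSCs, 20 of 33 were lower (22.7% of all genes) and 6 higher (24.5% of all genes), with a median of -1.28. Nrp1 was 61.3-fold lower, Slit2 52.4-fold and Sema3a at least 15.3-fold lower in MEF 4F iPSCs than in MEFs, while Robo4 was at least 7.42-fold and Sema4b 7.53-fold higher. Epha2 was higher in each derived line than in its donor, 6.55-fold in MEF 4F iPSCs and at least 10.3-fold in NSC 2F iPSCs.

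In 5 members 1 derived line was at least 2-fold lower than its own donor and another at least 2-fold higher than its own. These were 11.1% of the 45 members detected on a donor or derived array, and 4.61% of all genes so detected had such a pair of differences. With undetected values at the lowest detected level of their array it was 3 members (6.67%), Efna5, Slit2 and Unc5b, against 3.71% of all genes. Unc5b started at 8.89 in MEFs, 5.41 in NSCs and 5.24 in iNSCs. The derived lines were at 7.40, 7.05 and, for the clones, 7.21 and 6.76 (ESCs 7.09). The donors differed more than the lines made from them, which the choice of members with opposite differences favours. Efna5 went from 11.12 to 8.80 in the MEF pair and from 5.43 to 7.43 in the NSC pair, with clones at 7.33 and 7.09 from iNSCs at 7.99 and ESCs at 6.36. The second Efna5 probe was detected in MEFs alone, at 5.89, so its levels in the NSC pair have no order. Slit2 went from 11.40 to 5.69 in the MEF pair, from 5.32 to 6.51 in the NSC pair, and from 5.93 to a mean of 5.75 over the clones (ESCs 5.46). Efnb2 and Sema3f differ from these in that the neural donor above which they lay was undetected, and the bounds there were under 2-fold, at least 1.64-fold (NSC pair) and 1.35-fold (clones) for Sema3f and 1.77-fold (clones) for Efnb2. Sema3f was at 6.57 in MEF 4F iPSCs, 5.91 in NSC 2F iPSCs, and 5.76 and 5.47 in the clones, and undetected in ESCs (5.10). Efnb2 was at 6.94, 5.91, and 5.96 and 6.04 in the same lines, and at 5.65 in ESCs.

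**Figure D4:**
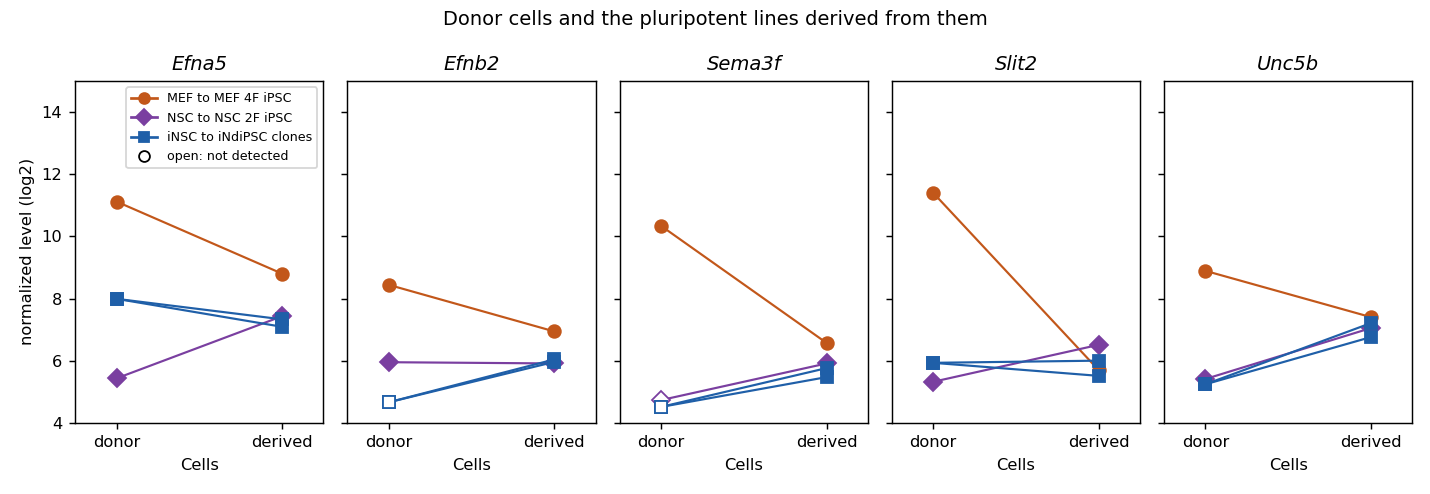
Normalized log2 level (vertical axis) of the 5 members whose measured value was lower in 1 derived line and higher in another than in the respective donor, in donor cells (left of each panel) and the lines derived from them (right), 1 array per point, with 2 clones for iNSC and open symbols for undetected values. Unc5b runs from 8.89, 5.41 and 5.24 in the donors to between 6.76 and 7.40, a narrowing that the choice of these members favours.

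Fibroblast markers differed between the derived lines as well. Their summed level was 2033 in NSC 2F iPSCs, 1411 in MEF 4F iPSCs, 798 and 582 in the clones and 304 in ESCs. By the brightest probe, only ESCs of these lines had undetected Sema3f. The other probes of Sema3f read 9.83 and 6.45 in MEFs. The first of them was undetected in iNdiPSC-4 (4.79) as well as in ESCs (5.08). The other was undetected in all of these lines (4.26 to 4.48). Krt14 and Sprr1a, of 5 keratinocyte markers, summed to 2232 in MEF 4F iPSCs and the list to 95 at most elsewhere, with Krt5, Krt6a and Trp63 undetected on every array. The part of the markers in these values was not tested.

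Genes of the same pathways outside the symbol rule were examined in 2 lists. For the control lines against somatic cells, 12.9% of all genes were called higher and 10.4% lower. Of 32 other guidance cues and receptors 30 were measured and 19 tested, of which limma called 2 higher and 5 lower in the control lines, with a median of -1.58. Rgma, a repulsive guidance molecule, was at 8.61, 10.45 and 12.29 in MEFs, NSCs and iNSCs and at 5.25 to 5.72 in the control lines, a difference of -5.01 (limma adjusted p = 0.0111, 32.1-fold). Its receptor Neo1 (-1.35), the proteoglycan Gpc1 (-2.23), Flrt3 (-2.06) and the Wnt receptor Ryk (-1.06) were also lower. Ngfr and the cadherin Celsr3 were undetected in all somatic cells and at least 2.99-fold and 2.01-fold higher in the control lines. Cntn1 and Omg (detected in NSCs and iNSCs alone, at least 7.64-fold and 3.68-fold) and Vangl2 (1.17-fold higher) were not called. Of 43 intracellular effectors 31 were measured and 22 tested, with 1 called higher and 4 lower and a median of -1.08. Dpysl2, which carries the semaphorin signal to microtubules, was 8.94-fold lower (difference -3.16, limma adjusted p = 0.00213), Dpysl3, Cdk5 and Nck2 were lower, and Mical3 was undetected in the somatic cells and at least 2.29-fold higher. Vav3 (-2.88), Enah (1.00) and Tiam1 (0.82) were not called. In the clones against the control lines limma called 0 of 14 other cues and 1 of 22 effectors. Of all genes in that fit 0.571% were called higher and 0.595% lower. An unadjusted limma p below 0.05 was found for 2 of these cues and 4 of these effectors, against 19.1% of all genes. The effector called was Kalrn, a guanine nucleotide exchange factor. It was at 5.60 and 5.56 in the clones and undetected on every other array (fitted difference 1.29, limma adjusted p = 0.0255). Against undetected control arrays its bound was at least 1.37-fold, under the 2-fold of the call.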

How the data were processed

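Total RNA of 8 mouse cell samples was hybridised to Illumina bead arrays, 1 array per sample. The authors deposited the mean bead intensity of each probe, exported from BeadStudio 3.2 with no background correction, and beside it a detection p-value against negative control beads. The authors also deposited a matrix of log2 values that they had corrected and normalized, with RMA and lumi named but no parameters. That matrix served as an alternative. All columns were matched to a sample (0 unmatched). The number of arrays limits the precision.

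Intensities were corrected by normexp on the detection p-values and quantile-normalized (neqc, offset 16, limma 3.58.1, R 4.3.3). Genes took the RefSeq symbol of the gene identifier given for each probe, or the platform's own symbol where no RefSeq symbol was found. The probe with the highest mean over 8 arrays stood for each gene. Of the 32 other member probes 20 were detected nowhere, 14 of them while the gene's first probe was detected. A gene entered a fit when detected on at least 2 of its arrays, lmFit and eBayes were run over all genes, and a call needed an adjusted p below 0.05 and at least a 2-fold change. A bound "at least" sets undetected arrays to the higher of their own value and the lowest detected level of that array. Single arrays were compared by difference only, with a gene detected on either side. The fitting script was tested on simulated data. The columns hold no chip, so no batch could be set. The members and the lists were chosen with earlier results of these data known. Named with values on all arrays (undetected ones in part as a range) were the called members, the 10 with the largest range and the 5 largest differences each way of iNSCs against NSCs, iNSCs against MEFs and clones against iNSCs. From the lists outside the rule, the called genes and the 3 largest differences each way in the first fit of each list were named. Alternatives were no background correction, scaling to the 75th percentile, the deposited log2 values, a 4-fold threshold, all named probes, other detection filters, 1 fit of all 8 arrays and leaving out each array.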

Additional observations from a re-analysis of the deposited data

Results flagged for a closer look

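The measured difference of a derived line from its donor was past 2-fold in opposite directions for different donors in 5 members (11.1% of 45, against 4.61% of all genes). All values are differences of log2 levels. From MEFs to MEF 4F iPSCs the change was -2.32 for Efna5, -1.50 for Efnb2, -3.77 for Sema3f, -5.71 for Slit2 and -1.49 for Unc5b. From NSCs to NSC 2F iPSCs it was 2.00 for Efna5, 1.18 for Sema3f, 1.18 for Slit2 and 1.64 for Unc5b. From iNSCs to the mean of the clones it was 1.35 for Efnb2, 1.11 for Sema3f and 1.75 for Unc5b. The Sema3f values over NSCs and iNSCs and the Efnb2 value over iNSCs are against an undetected donor, where only bounds hold, at least 1.64-fold, 1.35-fold and 1.77-fold, which are under 2-fold. The difference between donors was not tested, since each donor is 1 array.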

How the results depend on the processing

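Calls in the control pluripotent lines against somatic cells numbered 8, but 3 without background correction and 5 without a filter on detection, and the cause was not tested. For the calls and for the counts past 2-fold, shares over all genes under these settings are not given here. The shifts can therefore not be read as particular to members. Without background correction Nrp1, Ntn4, Plxna2, Robo4 and Sema4a lost the call, and without the filter Epha2, Nrp1 and Robo4 did. Leaving out each array in turn gave 3 (without MEF 4F iPSCs) to 16 (without MEFs), with 4 without NSC 2F iPSCs, 5 without ESCs, 6 without NSCs and 7 without iNSCs. In the clones against the control lines 0 members were called in every alternative. Members past 2-fold without background correction were 2 in iNSCs against NSCs, 15 in iNSCs against MEFs, 14 in NSCs against MEFs, 10 in clones against iNSCs, 6 in NSC 2F iPSCs against NSCs and 15 in MEF 4F iPSCs against MEFs. At 4-fold they were 1 in iNSCs against NSCs, 15 in NSCs against MEFs, 9 in clones against iNSCs, 8 in NSC 2F iPSCs against NSCs and 14 in MEF 4F iPSCs against MEFs. The 5 members that moved in opposite directions became 0 without background correction, 1 (Efna5) at 4-fold and 3 (Efna5, Slit2 and Unc5b) with undetected values at the floor. Members past 2-fold with undetected values at the floor were 5 higher and 1 lower in iNSCs against NSCs. They were 7 and 16 in iNSCs against MEFs, and 6 and 16 in NSCs against MEFs. They were 3 and 11 in clones against iNSCs, 6 and 11 in NSC 2F iPSCs against NSCs, and 6 and 19 in MEF 4F iPSCs against MEFs. The settings with undetected values at the floor, and all those for opposite moves, were chosen after seeing the data. Weaker calls kept their direction. Signal near background limits most members, since levels at or under the floor have no order. A fit with the chip as a block was not run, because the columns give no chip. No paired test was run. Donor and derived lines form pairs by origin, but each donor is 1 array, and they were compared by difference only. The fit of control lines against somatic cells did not use these pairs.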
